A study of Mus musculus with 6 samples.

Results

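The genes described here are the 3 ligands of the chemokine receptor CXCR3 (Cxcl9, Cxcl10 and Cxcl11), the interferon gamma receptor subunits Ifngr1 and Ifngr2, the interferon regulatory factors Irf1 and Irf8, the checkpoint ligand gene Cd274 and the tryptophan-degrading enzyme gene Ido1. They were chosen by gene symbol, and all 9 were found among the 23518 genes of the table. RNA was sequenced from 3 ear skin samples of wild-type (WT) mice and 3 of HdR mice, the label for mice with HOIL1 ΔRING1, which was read as HOIL1 without its RING1 domain. The libraries are called WT1 to WT3 and HdR1 to HdR3. HOIL1 is the product of Rbck1 and a subunit of the linear ubiquitin chain assembly complex. Ears of both genotypes had received 10 mg of a cream with 5% imiquimod, a Toll-like receptor 7 agonist, and were sampled on day 1. All 6 samples were treated, so the comparison shows how the genotypes differ under imiquimod and not what imiquimod did. The labels used here give no strain, age or sex, and do not say in which cells HOIL1 was altered or whether each sample is a separate mouse, so p-values measure the spread between these samples only.

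Interferon gamma is made mainly by activated T cells and NK cells and binds a receptor of 2 chains, IFNGR1 and IFNGR2. The kinases JAK1 and JAK2 on these chains start a signal that induces a first wave of genes, which includes Irf1. IRF1 then helps to drive Cxcl9, Cxcl10 and Cxcl11, whose proteins attract CXCR3-bearing T cells and NK cells, as well as Cd274 (PD-L1, which restrains T cells) and Ido1. Cxcl10 and Irf1 are also induced by NF-kB and by type I interferon, and Cxcl9 depends more strictly on interferon gamma.

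Values are normalised coverage, in bases aligned to a gene per Mb of scaled library, and a log2 change is the HdR mean less the WT mean of log2(value + 1), a scale that shrinks the changes of sparse genes. The libraries held 4433 to 5966 Mb, or 14.8 to 19.9 M pairs of reads at 300 bases a pair, so 1 base per Mb stood for 11.7 to 23.6 pairs. Rbck1, the gene altered in HdR, stood at 66.6, 55.1 and 64.1 in WT and at 23.9, 13.0 and 19.7 in HdR (limma adjusted p = 0.00438), although a sum over the whole gene does not show the altered stretch itself. The epidermal keratin genes Krt5, Krt14 and Krt10 were among the abundant transcripts of every library (1208 to 4530 bases per Mb). Long transcripts had lower coverage in HdR relative to WT: slopes on log2 transcript length were 0.0404 to 0.247 in the WT libraries and -0.272 to -0.0805 in the HdR libraries, so changes are also given with this trend removed (length correction). The ribosomal RNA precursor Rn45s took 0.102% to 0.119% of bases in WT and 0.368% to 1.54% in HdR. The part of these differences in the results below was not tested beyond the removal of the length trend.

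In HdR skin both interferon gamma receptor genes were higher than in WT skin and Cd274 was lower, while the 3 chemokine genes, Irf1 and Irf8 did not pass the test and overlapped between the genotypes. Cxcl9 passed when samples were paired by replicate number. In bulk skin, fewer cells of a type and less RNA per cell cannot be told apart. Of the 9 genes 8 had enough coverage to be tested. By limma with Benjamini-Hochberg adjustment, 2 of the 8 were higher in HdR, against 12.7% of all genes tested, and 1 was lower, against 17.9% (30.6% in either direction). After length correction the counts were 2 and 0, against 10.9% and 8.47% (19.4% in either direction), and with the replicate number as a block 2 and 2, against 18.3% and 27.2%. Ido1 was too low to be tested. The median change of the 8 was -0.23, beside -0.13 for all 15049 genes tested. Leaving out 1 library also changed the calls over all genes. Without WT1, 197 were higher and 230 lower, beside 1904 and 2701 in the main fit. The counts were 2657 and 3359 without WT2, 607 and 746 without WT3, and 1037 and 1775 without HdR1. They were 773 and 1139 without HdR2, and 1538 and 2016 without HdR3. List counts with 1 library left out, given below, are to be read beside these. Per kb of the longest transcript, Cxcl9 was the most abundant of the 9 in WT, at 148 ± 129 bases per Mb per kb (SD, n = 3). It was followed by Ifngr1 (35.8 ± 1.33), Cxcl10 (25.8 ± 10.7), Irf1 (22.5 ± 5.43), Cd274 (18.0 ± 3.80), Ifngr2 (17.0 ± 4.37), Irf8 (6.41 ± 2.42), Cxcl11 (0.585 ± 0.565) and Ido1 (0.355 ± 0.161). Neighbours in this order lay within each other's spread, apart from Irf8, which stood below Ifngr2 and above Cxcl11 by more than their SDs. In HdR, Ifngr2 (29.1 ± 4.38 bases per Mb per kb) stood above Cxcl10 (22.7 ± 24.0), Irf1 (18.2 ± 8.51) and Cd274 (10.2 ± 3.19), and Ifngr1 at 62.9 ± 3.0 came close to Cxcl9 at 75 ± 52.4.

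**Figure D1:**
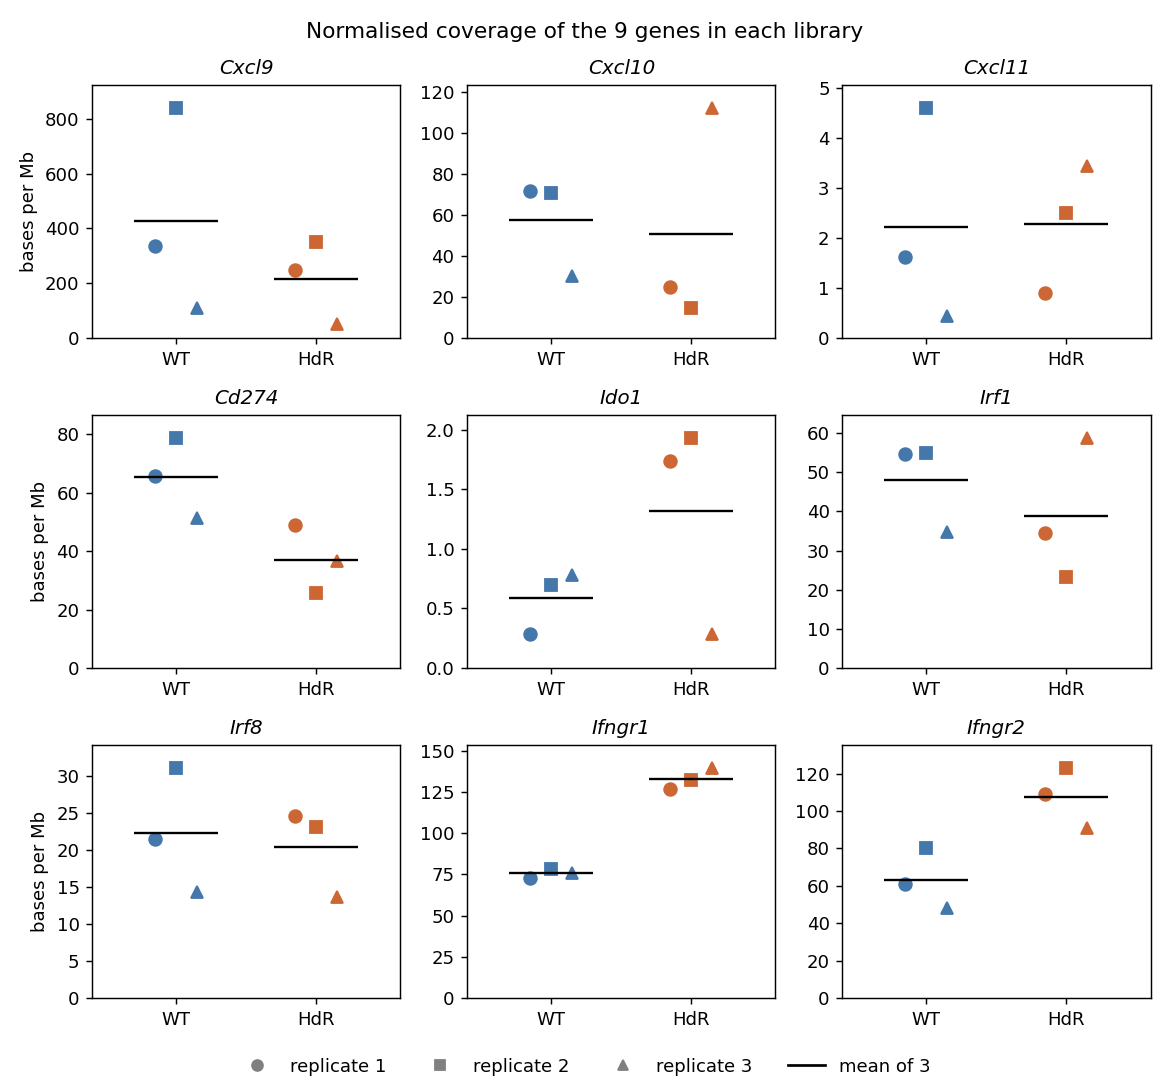
Normalised coverage (bases per Mb, each vertical axis from 0) of the 9 genes in the 3 WT and 3 HdR libraries; symbols mark the replicate number and horizontal lines the mean of 3. The HdR points of Ifngr1 and Ifngr2 lie above all WT points and those of Cd274 below them, while the points of the other genes overlap between the genotypes.

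The cytokine itself was at the limit of detection. Ifng (chromosome 10, 118441046 to 118445892, GRCm38) had 0.206, 1.05 and 0.200 bases per Mb in WT and 1.08, 0.448 and 0.282 in HdR, under the limit for testing. The single libraries with the most Ifng were WT2 and HdR1, and the genotypes overlapped. Cxcr3, the receptor of the 3 chemokines, was as low, at 0.513, 0.744 and 0.157 in WT and 0.949, 0.0855 and 0.455 in HdR. Neither gene was tested, and no difference is reported for them.

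Ifngr1 encodes the chain that binds interferon gamma. It lies on chromosome 10 (19591949 to 19610229, plus strand; ENSMUSG00000020009.13). Its coverage was 72.6, 78.2 and 76.0 bases per Mb in WT and 127, 132 and 139.6 in HdR. The 3 HdR values were all above the 3 WT values, and the libraries of each genotype were close together (coefficients of variation of 3.71% in WT and 4.77% in HdR), the tightest of the 9 genes. The mean was 1.76-fold higher in HdR, a log2 change of 0.80 (95% interval 0.49 to 1.12; limma adjusted p = 0.00979), and 0.68 after length correction (adjusted p = 0.0151). Ifngr2, on chromosome 16 (91547072 to 91565623, plus strand; ENSMUSG00000022965.8), encodes the signalling chain that pairs with IFNGR1. It stood at 60.9, 80.1 and 47.9 in WT and at 109, 123 and 90.8 in HdR, again without overlap but with a wider spread. The mean was 1.71-fold higher (log2 change 0.79, 95% interval 0.31 to 1.27; limma adjusted p = 0.0273), and the change was 1.03 after length correction (adjusted p = 0.0235). Groups that do not overlap, with HdR higher, were found in 20.9% of all genes tested (51.5% in either direction). Leaving out WT1 ended both calls (limma adjusted p = 0.0617 for Ifngr1 and 0.0967 for Ifngr2), at a change of 0.78 for each gene. Calls over all genes then fell from 1904 higher and 2701 lower to 197 and 230. The call of Ifngr2 was also lost without WT3 (0.0893), HdR1 (0.0697) or HdR2 (0.0800) and with no filter on low values (0.0623). Its changes without these 3 libraries were 0.62, 0.77 and 0.69. Scaling to total bases shifted the median of all genes from -0.13 to -0.41 and ended both calls, at changes of 0.49 (adjusted p = 0.0511) and 0.47 (adjusted p = 0.0745), which lay 0.90 and 0.88 above that median, beside 0.93 and 0.91 with the main scaling.

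**Figure D2:**
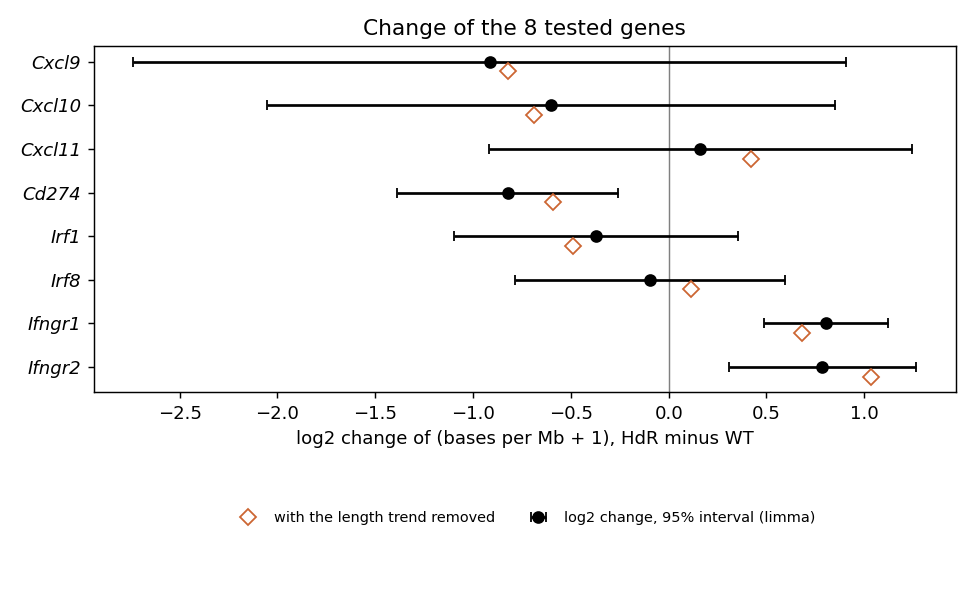
Log2 change of (bases per Mb + 1), HdR minus WT, of the 8 tested genes: filled points with 95% intervals from limma, open diamonds after length correction. The intervals of Ifngr1 and Ifngr2 lie above 0 and that of Cd274 below 0, and the widest intervals are those of Cxcl9 (-2.74 to 0.91) and Cxcl10 (-2.06 to 0.85).

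Downstream of the receptor, the transcript of a kinase was lower in HdR. Jak1, the kinase bound to IFNGR1, fell from 138 ± 12.2 to 86.4 ± 17.7 (-0.69, limma adjusted p = 0.0282), and after length correction its change was -0.31 (adjusted p = 0.130). Jak2, the kinase bound to IFNGR2, was at 93.2, 88.6 and 85.9 in WT and 73.8, 40.9 and 71.7 in HdR. The Jak2 groups did not overlap, as for 30.7% of all genes tested with HdR lower, and the change of -0.56 did not pass (limma adjusted p = 0.0854). Jak2 passed with the replicate number as a block (adjusted p = 0.0388), with scaling to total bases (-0.88, adjusted p = 0.0454) and with sample quality weights (-0.42, adjusted p = 0.00430). These settings called 4094, 4305 and 5639 of all genes lower, beside 2701 in the main fit. With length correction the Jak2 change was -0.17 (adjusted p = 0.507). Socs1, a feedback inhibitor of JAK kinases, was at 10.9 ± 2.57 and 11 ± 3.5 (log2 change -0.01, adjusted p = 0.976). In the list of 12 tested genes of interferon gamma signalling and feedback, 2 rose (the receptor genes) and 4 fell, among them Jak1, the phosphatase gene Ptpn11 (-1.08) and the SUMO ligase gene Pias1 (-0.53), with a median change of -0.21. Among all genes tested, 12.7% rose and 17.9% fell. After length correction 2 fell, Ptpn11 among them, and Pias1 stood at -0.11. Without WT1 the counts were 0 risen and 1 fallen, without WT3 or HdR2 they were 1 and 2, and without HdR1 they were 1 and 3.

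Irf1 and Irf8 encode transcription factors that bind interferon-stimulated response elements. Irf1 (chromosome 11, 53770014 to 53778374, plus strand) was at 54.5, 55.0 and 34.7 bases per Mb in WT and 34.5, 23.2 and 58.8 in HdR. HdR3 was the highest and HdR2 the lowest of all 6 libraries, so the genotypes overlapped (log2 change -0.37, 95% interval -1.10 to 0.36; limma adjusted p = 0.386). Irf1 shares 135 nt of exon with Gm17334 on the opposite strand. Irf8 (chromosome 8, 120736358 to 120756694, plus strand), a factor of monocytes, dendritic cells and B cells that interferon gamma also induces in other cells, was at 21.4, 31.0 and 14.3 in WT and 24.6, 23.1 and 13.6 in HdR. Its libraries also overlapped, with replicate 3 the lowest in both genotypes (-0.10, 95% interval -0.78 to 0.59; adjusted p = 0.823). The sign of the Irf8 change was not stable: it was 0.11 after length correction and 0.11 with quantile normalisation. Of the other genes of the interferon regulatory factor family, Irf9 had a log2 change of -0.43 that did not pass (adjusted p = 0.0560). It passed under some alternatives, the replicate block among them (adjusted p = 0.0210), and was -0.16 after length correction (adjusted p = 0.487). Irf3 had a log2 change of 0.21 (adjusted p = 0.312).

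Cxcl9, Cxcl10 and Cxcl11 lie within 44139 nt of chromosome 5 (92321347 to 92365485), all on the minus strand. Cxcl9 varied widely within each genotype. It was at 335, 839 and 109 bases per Mb in WT and 247, 350.2 and 52.2 in HdR. Within WT the highest library was 7.69-fold above the lowest, and within HdR 6.71-fold, so the genotypes overlapped (log2 change -0.92, 95% interval -2.74 to 0.91; limma adjusted p = 0.395). Within each replicate number, however, the HdR library was below the WT library, at ratios of 0.737, 0.417 and 0.478 for replicates 1, 2 and 3. With the replicate number as a block, the change of -0.92 had an SE of 0.17 and passed (limma adjusted p = 0.00503, and 0.00964 with length correction as well). Libraries of HdR below their WT counterpart in all 3 pairs were found for 41% of all genes tested, and 27.2% were called lower with the block. Leaving out WT2 or HdR3 brought the unpaired change to -0.19 and -0.09, and leaving out WT3 or HdR2 brought it to -1.66 and -1.45, with 0 of the 6 values called.

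Cxcl10 was at 71.8, 70.8 and 30.1 bases per Mb in WT and 24.9, 14.9 and 112 in HdR. HdR replicates 1 and 2 were below all WT libraries, and HdR3 was above them all. The log2 change was -0.60 (95% interval -2.06 to 0.85; limma adjusted p = 0.485), and -0.69 after length correction. This value rests on single libraries: without HdR3 the change was -1.43 and was called (limma adjusted p = 0.0370), and without HdR2 it was -0.01. The annotation places part of the gene Art3 on the opposite strand, sharing 133 nt of exon with Cxcl10, and with no strand stated for the counting their reads cannot be told apart there. Art3 itself stood at 84.7 ± 4.70 in WT and 84.7 ± 3.67 in HdR. Cxcl11 was sparse, at 1.62, 4.6 and 0.437 in WT and 0.909, 2.5 and 3.43 in HdR, equal to 10.3 to 88.3 read pairs per library. It overlapped between the genotypes (0.16, 95% interval -0.92 to 1.24; adjusted p = 0.809), and its sign turned with scaling to total bases (-0.02) and without WT3 (-0.30) or HdR3 (-0.10). Cxcl11 shares 1582 nt of exon with the pseudogene Gm2673 on the opposite strand, so its reads are uncertain.

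The ligands did not follow a common order across the libraries. Ranked over the 6 libraries, Cxcl10 and Irf1 had HdR3 first, WT replicates 1 and 2 next and HdR2 last. Cxcl9 and Irf8 both had WT2 first and HdR3 last. HdR3 was thus the library with the most Cxcl10 and the least Cxcl9: Cxcl9 was 0.465 times Cxcl10 in it, against 3.62 to 23.6 times in the other 5 libraries. These pairs of genes were picked after the values were seen, and 6 libraries that also differ in genotype and length trend give a description only. By a rule that ranked 11729 genes by Pearson r over the 6 libraries, the genes most like Cxcl9 were Mmp23 (r = 0.991), Ms4a4d (r = 0.990) and Ppic (r = 0.988). Those most like Cxcl10 were Sdr42e1 (r = 0.979), Shld2 (r = 0.969) and Marcksl1 (r = 0.969).

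**Figure D3:**
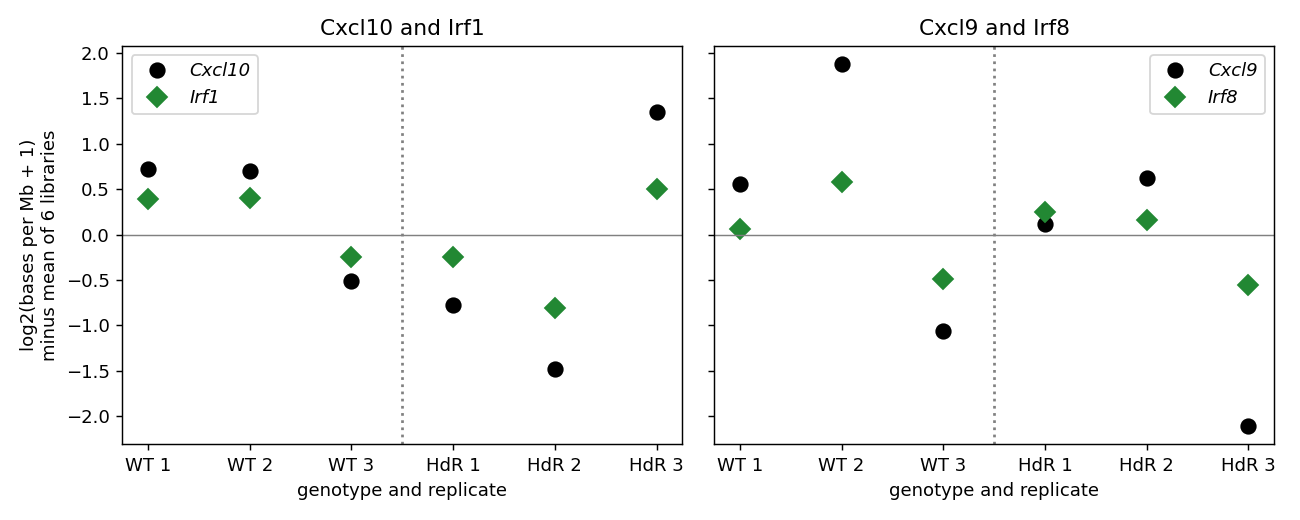
Log2(bases per Mb + 1) minus the mean of the 6 libraries for Cxcl10 and Irf1 (left) and for Cxcl9 and Irf8 (right), by genotype and replicate. HdR3 is the highest library on the left and the lowest on the right.

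The promoters of these 4 genes are shown because their transcripts ranked the libraries in pairs. Each window holds 300 bases around a RefSeq start on GRCm38.p6, 5′ to 3′ on the strand of the gene, and positions are counted from that start. Capitals mark matches on either strand to the gamma-activated site, or GAS (TTCNNNGAA), the core of the interferon-stimulated response element (GAAA, any 2 bases, GAAA) and the NF-kB consensus.
Cxcl10, chr5:92348840-92349139, minus strand: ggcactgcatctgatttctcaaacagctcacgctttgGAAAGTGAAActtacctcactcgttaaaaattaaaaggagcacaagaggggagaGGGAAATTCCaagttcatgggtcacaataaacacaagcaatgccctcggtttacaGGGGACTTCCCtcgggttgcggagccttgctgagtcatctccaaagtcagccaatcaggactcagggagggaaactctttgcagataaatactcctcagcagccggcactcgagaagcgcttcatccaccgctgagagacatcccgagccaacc
Irf1, chr11:53769764-53770063, plus strand: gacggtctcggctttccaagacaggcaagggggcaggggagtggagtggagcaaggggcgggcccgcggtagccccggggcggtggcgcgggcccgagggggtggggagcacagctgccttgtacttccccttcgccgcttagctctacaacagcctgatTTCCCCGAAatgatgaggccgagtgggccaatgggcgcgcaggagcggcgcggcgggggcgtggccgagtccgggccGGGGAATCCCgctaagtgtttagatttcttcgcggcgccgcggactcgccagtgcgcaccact
Cxcl9, chr5:92328030-92328329, minus strand: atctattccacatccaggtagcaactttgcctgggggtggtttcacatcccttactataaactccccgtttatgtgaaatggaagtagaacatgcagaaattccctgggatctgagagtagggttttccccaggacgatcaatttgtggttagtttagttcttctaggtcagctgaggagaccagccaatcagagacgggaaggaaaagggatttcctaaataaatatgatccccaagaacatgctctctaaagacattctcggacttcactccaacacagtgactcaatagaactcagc
Irf8, chr8:120736108-120736407, plus strand: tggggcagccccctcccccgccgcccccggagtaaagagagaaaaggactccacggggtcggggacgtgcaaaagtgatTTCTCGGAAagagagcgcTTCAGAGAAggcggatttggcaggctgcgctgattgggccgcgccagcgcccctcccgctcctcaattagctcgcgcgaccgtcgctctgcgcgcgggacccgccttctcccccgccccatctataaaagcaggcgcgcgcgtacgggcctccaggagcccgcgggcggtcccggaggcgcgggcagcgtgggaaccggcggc

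The Cxcl10 window held 1 core of the response element, GAAAGTGAAA, with its first base at -213, and 3 matches to the NF-kB consensus. One of these, GGGAAATTCC, began at -159, and the others, GGGGACTTCC and GGGACTTCCC, overlap. The Irf1 window shown held 1 GAS match, TTCCCCGAA, at -90 and 1 NF-kB match, GGGGAATCCC, at -13. The Irf8 window shown held 2 GAS matches, TTCTCGGAA and TTCAGAGAA, at -171 and -153. Irf1 and Irf8 each had another window, not shown (chr11:53770223-53770522 and chr8:120738389-120738688), without a match. In the Cxcl9 window these letters were not found. Of 32851 windows of this kind, 8.3% held a GAS match, 3.44% the response element core, 8.46% the NF-kB consensus and 0.247% both of the last. A match is a run of letters and does not show binding. Windows were found for 7 of the 9 genes, and among the others the Ifngr2 window held 1 NF-kB match, GGAAAGTCCC.

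Cd274 encodes PD-L1, the ligand that restrains T cells through PD-1. It lies on chromosome 19 (29367455 to 29388095, plus strand; ENSMUSG00000016496.7). It was at 65.6, 78.8 and 51.3 bases per Mb in WT and 48.8, 25.7 and 36.7 in HdR. All HdR libraries were below all WT libraries, although HdR1 and WT3 lay close together. HdR stood at 0.569 times WT, a log2 change of -0.82 (95% interval -1.39 to -0.26; limma adjusted p = 0.0378). Groups without overlap and with HdR lower made up 30.7% of all genes tested. The call was lost after length correction (-0.59, adjusted p = 0.0905) and without WT1 (adjusted p = 0.118), WT2 (0.0755), HdR2 (0.10) or HdR3 (0.0689), and with no filter on low values (0.0821). The Cd274 changes without WT1, WT2, HdR2 and HdR3 were -0.81, -0.66, -0.59 and -0.84. Cd274 shares 511 nt of exon with AC119228.1, an antisense gene that was not analysed here. The genes closest to Cd274 over the 6 libraries were Slc39a7 (r = 0.992), Slc10a7 (r = 0.991) and Msn (r = 0.989). Pdcd1lg2, which encodes PD-L2, the other ligand of PD-1, and lies beside Cd274 on chromosome 19 (29410919 to 29471161), was at 2.57, 4.29 and 1.84 in WT and 3.81, 3.69 and 1.21 in HdR (adjusted p = 0.942).

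Ido1, which encodes the enzyme that starts the breakdown of tryptophan to kynurenine, was near the limit of detection. It was at 0.283, 0.700 and 0.782 bases per Mb in WT and 1.74, 1.93 and 0.284 in HdR, equal to 4.13 to 28.4 read pairs. HdR replicates 1 and 2 were the highest libraries, and HdR3 stood beside the lowest WT library. In a fit without the limit on low values Ido1 was not called either (0.47 on the log2 scale, limma adjusted p = 0.353). Of 11 tested genes of the tryptophan and kynurenine pathway, 0 rose and 0 fell by limma, and at an unadjusted p under 0.05 1 was higher and 0 lower (median change 0.08). That gene was Kmo, which encodes kynurenine monooxygenase, at 3.40 ± 0.818 in WT and 5.50 ± 1.21 in HdR (0.56, adjusted p = 0.0818, and 0.0479 with the replicate block). Cyp1a1, a target of the kynurenine-responsive receptor AHR, had a log2 change of 0.36, the amino acid transporter gene Slc7a5 of -0.47 and Ahrr of -0.38, and none of them passed (adjusted p = 0.127, 0.149 and 0.186). Without WT2, 1 gene of the pathway was higher and 1 lower.

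The checkpoint and costimulation list, which holds Cd274, had 16 genes tested, of which 0 rose and 4 fell, beside 12.7% and 17.9% of all genes tested (at an unadjusted p under 0.05, 2 and 5; median 0.06). Cd276, which encodes B7-H3, fell from 8.65 ± 1.06 to 3.48 ± 0.455 bases per Mb (log2 change -1.11, limma adjusted p = 0.00916). Lgals9, which encodes galectin-9, fell from 139 ± 21.1 to 55.1 ± 17.6 (-1.36, adjusted p = 0.0114), and Vsir, which encodes VISTA, by 0.57 (adjusted p = 0.0355). After length correction Cd276 (-0.88) and Lgals9 (-1.66) were called and Vsir (-0.20) and Cd274 were not. Leaving out WT1 left 1 fallen gene, and leaving out WT2, HdR2 or HdR3 left 2. With the replicate block 4 of the 16 genes rose, Pdcd1, Cd86, Icos and Cd40, beside 18.3% of all genes tested. Without WT2, 3 genes of the list rose.

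Among 37 other tested target genes of interferon gamma, 5 rose and 3 fell, with a median change of -0.07. These counts are close to or below the 12.7% and 17.9% of all genes tested, so they mark nothing particular to the list. The genes that rose were the class II antigen presentation genes H2-Aa (316 ± 55.2 to 647 ± 114 bases per Mb; log2 change 1.03, limma adjusted p = 0.0140), H2-Eb1 (1.19) and H2-Ab1 (0.90), the chemokine gene Cxcl16 (0.89) and Gch1, of biopterin synthesis (0.77). The genes that fell were the guanylate-binding protein gene Gbp3 (243 ± 77.7 to 95.1 ± 23.4; log2 change -1.32, adjusted p = 0.0129), the peptide transporter gene Tap1 (-0.74) and Nlrc5, the activator of class I genes (-0.72). Ciita, the activator of class II genes, did not pass (-0.26, adjusted p = 0.280). After length correction 4 rose and 2 fell. H2-Ab1 (0.48, limma adjusted p = 0.0614), Tap1 (-0.47, adjusted p = 0.106) and Nlrc5 (-0.20, adjusted p = 0.281) were then not called. Gbp3 still was (-1.28, adjusted p = 0.0156), and the other fallen gene was not called in the main fit. With the replicate block 6 fell, adding Gbp2, Gbp7 and Batf2, beside 27.2% of all genes tested. Without WT1 0 rose and 0 fell. There were 3 risen and 1 fallen genes without HdR2, 6 and 1 without HdR3, and 3 risen genes if WT3 or HdR1 was left out. The median turned positive without WT2 (0.27) or HdR3 (0.14), and was -0.32 without WT3 and -0.39 with scaling to total bases.

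Genes driven by ISGF3, the transcription factor complex of the type I interferon response, included many that were lower in HdR. Of 28 tested, 0 rose and 17 fell, against 17.9% of all genes tested that fell (at an unadjusted p under 0.05, 0 and 20), and the median change was -1.06. Eif2ak2, which encodes the RNA-activated kinase PKR, fell from 182 ± 13.1 to 66.4 ± 3.43 (limma adjusted p = 0.00167). Stat2 fell from 163 ± 9.37 to 68.4 ± 2.67, Oas3 from 22.6 ± 1.98 to 7.61 ± 0.753 and Oasl2 from 166 ± 24.3 to 55.0 ± 7.83. After length correction 14 fell (median -0.95). There were 8 fallen genes without WT1, where 230 of all genes fell. There were 11 without WT2, HdR1 or HdR2, where 3359, 1775 and 1139 of all genes fell. Cxcl10, Irf1 and Cxcl11, which both interferon types can induce, were not called. Irf9 is also a member of the factor family.

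Of 26 tested NF-kB target genes 12 rose and 1 fell, beside 12.7% and 17.9% of all genes tested (median 0.63), among them Nfkbia (124 ± 26.0 to 337 ± 25.2), Ier3 (51.6 ± 12.2 to 133 ± 9.10), the cytokine gene Il6 (1.63 ± 0.775 to 9.74 ± 3.59) and the neutrophil chemokine gene Cxcl2 (4.80 ± 4.63 to 31.4 ± 5.43). The gene that fell was Rel (-0.85), which was not called after length correction (-0.34). There were 7 risen genes without WT3 and 5 without HdR2, and Rel was not called without WT1, WT3 or any 1 of the HdR libraries. In a list of 13 tested genes, CXC chemokines other than the CXCR3 ligands, chemokine receptors and the protease gene Dpp4, 8 rose and Dpp4 fell (median 0.89). Cxcl13, a B cell chemoattractant gene, rose from 81.9 ± 38.0 to 444 ± 121 (limma adjusted p = 0.00438). Dpp4, whose product trims and inactivates CXCR3 ligands, fell from 29.3 ± 2.86 to 12.4 ± 2.61 (log2 change -1.19, adjusted p = 0.00807; -0.79 after length correction). The risen genes numbered 3 without WT1 or HdR2, 4 without WT3 and 5 without HdR1. The 2 lists share Cxcl1, Cxcl2 and Cxcl5.

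**Figure D4:**
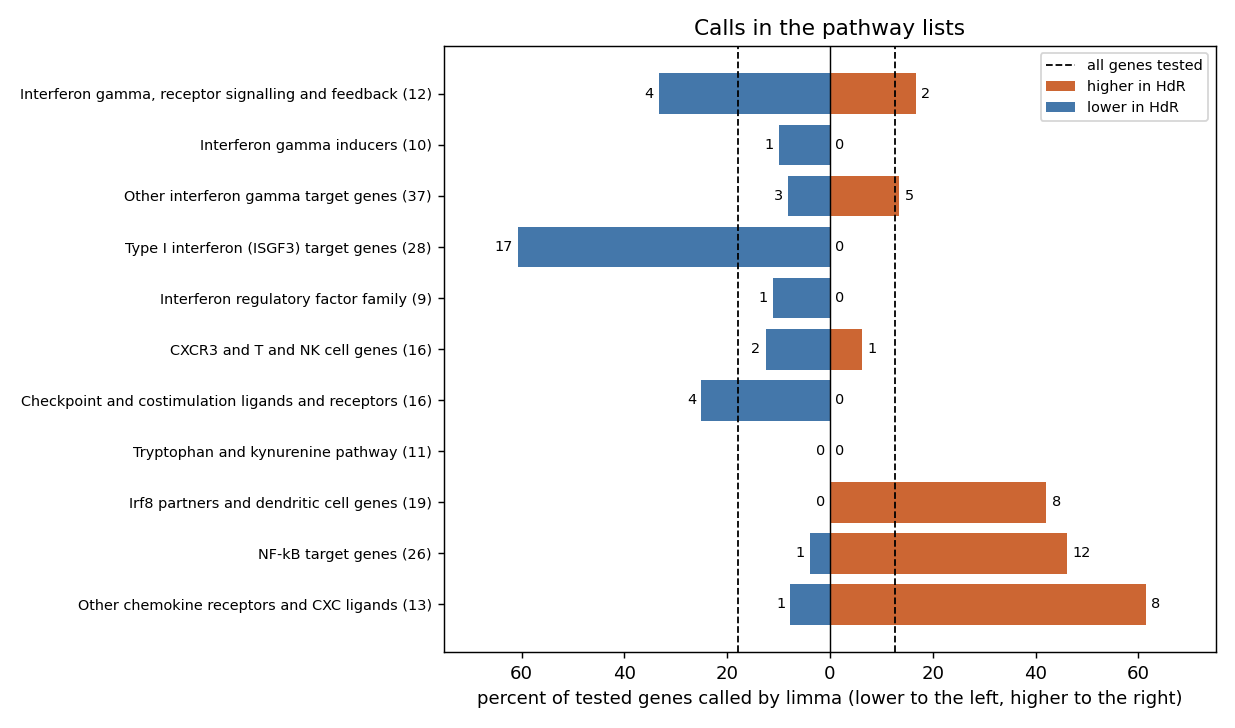
Percent of the tested genes of each pathway list that limma called higher in HdR (bars to the right) or lower (bars to the left), with the number of genes at each bar and the number tested in parentheses. Dashed lines mark the 12.7% and 17.9% of all genes tested. The ISGF3 list stands out on the left with 17 of 28 genes. The NF-kB (12 of 26), chemokine (8 of 13) and dendritic cell (8 of 19) lists stand out on the right.

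Of 10 tested genes that induce interferon gamma, 0 rose and 1 fell, beside 12.7% and 17.9% of all genes tested (unadjusted 1 and 1; median 0.18). The gene that fell was Il12rb2, a subunit of the interleukin-12 receptor, from 3.47 ± 0.833 to 1.6 ± 0.752 bases per Mb (log2 change -0.80, limma adjusted p = 0.0403). The call was lost after length correction (-0.69, adjusted p = 0.0768), and on leaving out WT1, WT3, HdR2 or HdR3. Il12b, the shared subunit of interleukins 12 and 23, was at 2.39, 2.68 and 0.423 in WT and 4.66, 4.87 and 3.24 in HdR. All HdR libraries were higher, as for 20.9% of all genes tested. The change of 1.00 did not pass (adjusted p = 0.0574), though it did under some alternatives, the replicate block among them (adjusted p = 0.0108). Il18 had a log2 change of 0.45 (adjusted p = 0.185) and Il27 of 0.30 (adjusted p = 0.295), both with a negative sign once the length trend was removed. Without WT2, 2 genes of the list rose.

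The marker genes of cells that make or answer interferon gamma are given beside these results. Of 28 T and NK cell genes, Cxcr3 and Ifng among them, 24 were in the table and 16 were tested, with 1 higher and 2 lower, beside 12.7% and 17.9% of all genes tested (median 0.20). Klrd1, an NK cell receptor gene, rose from 8.61 ± 2.37 to 24.6 ± 3.79, and Il2rb (-0.82) and Prf1 (-0.61) fell and were not called after length correction. Prf1 was under 1 base per Mb in every HdR library, so it entered the test through the WT libraries alone. The summed level of the list was 63.9 to 125 bases per Mb in WT and 88.0 to 148 in HdR, and Ncr1 and Eomes were at 0 in at least 1 library. The T cell receptor genes Cd3d (4.08 ± 1.99 and 6.61 ± 2.25), Cd3e (2.71 ± 0.358 and 2.88 ± 1.23) and Cd3g (20.1 ± 7.13 and 27.0 ± 7.28) did not pass, nor did Cd2 (change 1.04, adjusted p = 0.113). With the replicate block Cd3d, Cd2 and Klrd1 rose, beside 18.3% of all genes tested. Without WT2 there were 3 risen and 1 fallen genes, 2 and 0 without HdR3, and 0 fallen genes if WT1, WT3 or HdR2 was left out.

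Of 19 dendritic cell genes and partners of Irf8, all tested, 8 rose and 0 fell, beside 12.7% and 17.9% of all genes tested (unadjusted 8 and 0; median 0.64), and 9 rose after length correction. Mgl2 rose from 33.1 ± 1.71 to 65.8 ± 4.01, Cd209a from 7.61 ± 2.62 to 19.0 ± 2.24, the cytokine receptor gene Flt3 from 2.41 ± 0.157 to 5.13 ± 0.956 and Siglech from 0.597 ± 0.369 to 1.98 ± 0.477. Siglech was under 1 base per Mb in every WT library, so it entered the test through the HdR libraries alone. Markers of the dendritic cell subset that requires IRF8, Xcr1 (2.5 ± 1.06 and 2.29 ± 0.914) and Clec9a (1.75 ± 0.258 and 2.12 ± 0.416), did not pass. The summed level was 514 to 686 in WT and 739.8 to 893 in HdR, and no marker was at 0. The list had 1 risen gene without WT1, 2 without HdR2 and 3 without WT3 or HdR1. Among monocyte and macrophage markers 10 of 18 rose and 0 fell (unadjusted 12 and 0; median 0.87), with summed levels of 1322 to 2540 in WT and 3585 to 4079 in HdR. That count was 3 without WT1, 5 without WT3 or HdR1 and 6 without HdR2. The part of these cells in the levels of Ifngr1, Ifngr2, Irf8 and Cd274 was not tested.

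Markers of other cell types are given beside the 12.7% of all genes tested that rose and the 17.9% that fell. Of 10 tested neutrophil genes 7 rose, and the summed level of their list ran from 307 to 374 in WT and from 929 to 3514 in HdR. Of 10 adipocyte genes 6 rose, with sums of 742 to 773 in WT and 2248 to 3227 in HdR. Of 10 skeletal muscle genes Ckm, Tnnt3, Mylpf and Tnni2 rose, with sums of 2410 to 3620 and 4633 to 5296, while 1 rose without WT1 and 3 fell without WT2. The muscle list was split in direction, with a median change of -0.12. At an unadjusted p under 0.05, 4 of its genes were higher and 2 lower. Of 17 keratinocyte genes Krt14 (-0.71), Krt1 (-1.03) and Dsg3 (-0.80) fell, with sums of 13974 to 15752 in WT and 10576 to 12576 in HdR, a count close to that share. Of 12 endothelial genes Cdh5, Tek, Tie1 and Plvap fell by 0.64 to 1.02, with sums of 181 to 205 and 110.1 to 166. Of 12 fibroblast genes Col1a1, Col1a2 and Postn fell and Dpt rose, with sums of 7538 to 10018 and 6926 to 8612. Removal of the length trend left 2 muscle genes risen (Ckm and Mylpf) and 2 endothelial genes fallen (Tie1 and Plvap). It left 1 keratinocyte gene fallen (Krt14) and 1 risen, and 2 fibroblast genes fallen (Col1a1 and Postn) and 2 risen. The risen neutrophil and adipocyte genes still numbered 7 and 6. Without WT1, WT3 or HdR2, 0 keratinocyte and 0 endothelial genes fell and Dpt was not called. Without HdR1 the fallen genes were 1 and 2, and without HdR3 there was 1 keratinocyte gene. Without WT1 there was 1 fallen fibroblast gene. Without WT2, 2 adipocyte genes fell, and without HdR3, 1 keratinocyte gene rose. With the replicate block, 27.2% of all genes tested fell and 18.3% rose. In that fit 7 of 17 keratinocyte, 5 of 12 fibroblast, 2 of 10 muscle (Myh4 and Myh1) and 1 of 10 adipocyte genes fell. Of the 12 fibroblast genes 2 rose. The part of these markers in the results for the 9 genes was not tested.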

How the data were processed

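RNA from imiquimod-treated ear skin (3 WT and 3 HdR samples) was made into libraries with a NEBNext Ultra II kit and sequenced on an Illumina instrument, per the labels' protocols. The submitters' processing notes name the build GRCm38. Aligner, counter, annotation and strandedness were not given in the sources used here. Per its values, the deposited table holds whole-number coverage, a signal of aligned bases summed per gene: 1656 values equal 300, taken as the length of a read pair, and the column totals of 4433 to 5966 Mb are too large for reads. They are not counts, so no count model was used.

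Libraries were scaled by trimmed means of log ratios (trims of 30% on the ratio and 5% on the mean level), in code written for this work, and expressed as bases per Mb. A gene entered the test if 3 or more libraries reached 1 base per Mb, which 15049 genes did. HdR was compared with WT on log2(value + 1) with limma 3.58.1 in R 4.3.3 (trend and robust options, two-sided). The p-values were adjusted by Benjamini and Hochberg's method across those genes, and 0.05 was the threshold. The script was tested on simulated data. The length trend was a natural spline with 4 degrees of freedom on the log2 length of the longest transcript in GENCODE M21 (GRCm38), removed from each library, and 99% of genes tested had a length. Gene coordinates come from the same annotation, and promoter sequences from RefSeq on GRCm38.p6.

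After removal of genotype means, libraries of the same replicate number deviated together (r = 0.163, 0.416 and 0.366 across genes for numbers 1, 2 and 3). Between unlike numbers r ran from -0.38 to 0.159. WT1 and HdR3 (0.159) were about as alike as WT1 and HdR1 (0.163), so number 1 was not set apart as a pair. The numbers come from the sample titles, and the labels do not say what they mean; the pairing rests on these correlations, and values with the number as a block are given where they change the call of a gene described singly or move a list's count by over 1.5 times.

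The 9 genes, the 19 gene lists, the tests and the rule for naming genes were chosen with earlier results of these data known. The rule names the 9 genes, Rbck1, Ifng, Cxcr3, Jak1, Jak2, Socs1 and Pdcd1lg2, up to 4 genes with the smallest p in each of 11 pathway lists, all genes of a list where 5 or fewer moved in a direction, and the 3 genes most like Cxcl9, Cxcl10 and Cd274 among those with a mean of at least 5 bases per Mb. Some results that the rule names are not reported here. Xcr1, Clec9a, Ciita, Art3, Rn45s, Krt5, Krt10, Cd3d, Cd3e, Cd3g and the genes called only with the block were added after their values were seen. The alternatives were scaling by median of ratios, to total bases or by quantiles, no filter, a pseudocount of 0.1, sample quality weights, the replicate block, the length correction, both together, and each library left out in turn.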

Additional observations from a re-analysis of the deposited data

How the results depend on the processing

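Counts of genes higher and lower in HdR were 1904 and 2701. They became 917 and 4305 with scaling to total bases, 1017 and 1127 with no filter, 4113 and 5639 with sample quality weights, 2749 and 4094 with the replicate number as a block, and 1621 and 1263 with the length trend removed. Leaving out 1 library gave 197 to 2657 higher and 230 to 3359 lower, the lowest both without WT replicate 1 and the highest both without WT replicate 2. Of the 9 genes, 2 were higher and 1 lower. With total scaling 0 were higher, and with no filter 1 was higher and 0 lower. The block made 2 lower, adding Cxcl9, and length correction 0. With 1 library left out, 0 to 2 were higher and 0 to 1 lower. Among the 9 genes the block changed no other call. The share of calls that were higher in HdR was 41.3%, and 17.6% with total scaling, 53.1% with quantile normalisation and 56.2% with length correction. With no filter fewer genes of the main lists were called: 10 lower ISGF3 targets, 6 higher NF-kB targets, 3 higher dendritic cell genes and 4 higher macrophage genes. Small changes turned sign. Socs1 (-0.01) became 0.046 with median-of-ratios scaling, 0.21 with quantile normalisation and 0.086 with length correction, with or without the block, and ran from -0.20 to 0.24 with 1 library left out. Pdcd1lg2 (-0.04) became 0.011, 0.056 and 0.050 with median-of-ratios scaling, quantile normalisation and quality weights, and ran from -0.23 to 0.33. Cxcl11 became -0.019 with total scaling and ran from -0.30 to 0.68. Irf8 became 0.11 with quantile normalisation or length correction and ran from -0.36 to 0.19. Irf3 became -0.10 with total scaling. With length correction, with or without the block, Il18 became -0.089, Il27 -0.19 and Ahrr 0.014. The cause of these shifts was not tested. Ido1 rested on 4.13 to 28.4 read pairs a library and Cxcl11 on 10.3 to 88.3, and what this depth could detect was not tested.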
